A study of Mus musculus with 8 samples.

Results

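The genes of the acute phase and other plasma proteins were compared between hepatocytes with and without the cannabinoid 1 receptor (CB1R, encoded by *Cnr1*). The set holds 43 genes, out of 21368 genes with a named probe on the arrays: serum amyloids, orosomucoids, scavengers of haem and iron, pentraxins, protease inhibitors, hormone carriers and the albumin family. They were chosen as a list of gene symbols, and a spot was taken as a member when its accession maps to a listed gene. RNA came from isolated hepatocytes of male mice aged 12 to 14 weeks on a standard diet, for which the labels name no treatment. The control group, hCNR1+/+, was 4 arrays labelled hCNR1_WT of the strain CNRO, and the knockout group, hCNR1-/-, was 4 arrays labelled hCNR1_cKO of the strain CNRO Alb-Cre. Both came as littermates from crosses of albumin-Cre mice with CNR1flox/flox mice, so the deletion is driven by the albumin promoter, which is active in hepatocytes. By the strain labels the controls are not Alb-Cre mice, but the sample titles of both genotypes carry the tag Alb. If the strain labels hold, the Cre transgene and the deletion cannot be told apart. The labels do not name single mice, and a legend of the study gives fewer samples per genotype than the arrays used here, so the p-values measure the spread between these arrays.

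The acute phase response is the change in the proteins that the liver secretes into plasma during infection or injury. Interleukin-6 acts on hepatocytes through gp130 and STAT3, interleukin-1 through NF-kappa-B and C/EBP factors, and glucocorticoids act together with both. Positive acute phase genes such as *Saa1*, *Orm1* and *Hp* rise in this state, and negative ones such as *Alb*, *Ttr* and *Rbp4* fall. Many of the carriers and inhibitors are made in large amounts by the resting liver too.

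Each RNA sample was labelled with Cy3 and hybridised to 1 array, and every level below is the log2 signal of a probe relative to the 75th percentile of the spots of its array. A difference of 1 on this scale is a 2-fold change, and values for single arrays are listed in the order of replicates 1 to 4. The percentile itself was 110 to 139 intensity units on hCNR1+/+ replicates 1 to 3 and 79.4 to 124 on hCNR1-/- replicates 1 to 3, but 62.0 on hCNR1+/+ replicate 4 and 29.3 on hCNR1-/- replicate 4, and 0 spots were saturated. These 2 dimmest arrays stood apart from the others, and some of the results that rest on them are given with and without them. Row 1 of the slide held the 4 hCNR1+/+ arrays and row 2 the 4 hCNR1-/- arrays, so that the row and the genotype cannot be told apart. The column of the slide was the replicate number, so both dimmest arrays were in column 4. The probe of *Cnr1* was well above background on 0 of 4 arrays of either genotype and does not check the labels. All 20 hepatocyte markers were measured, among them *Cyp2e1* and *Arg1*, with a mean level of 5.62 to 6.38 over the hCNR1+/+ arrays and of 5.20 to 5.77 over the hCNR1-/- arrays.

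Of the 43 genes, 39 were tested, and the probes of all 39 were well above background on 4 of 4 arrays of each genotype. No probe matched *Serpina1b* or *Serpina3g*. The probe of *A1bg*, the alpha-1B-glycoprotein, was well above background on 0 arrays, and that of *Serpina7*, the thyroxine-binding globulin, on 1 hCNR1+/+ array and 0 hCNR1-/- arrays.

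Of all the tested plasma protein genes, the 3 orosomucoid genes *Orm1*, *Orm2* and *Orm3* were lower in every hCNR1-/- array than in any hCNR1+/+ array, and no other member was separated in this way. *Orm1* fell by 1.11 on the log2 scale (limma, adjusted p = 0.0494). This call was lost, among other settings, on leaving out any 1 of 7 of the 8 arrays, with median scaling (limma, adjusted p = 0.543) and with the replicate number as a block (limma, adjusted p = 0.137). In the reported fit the differences of *Orm2* and *Orm3* were of 1.04 and 1.61 on that scale in the same direction, without passing the adjusted threshold. At a Benjamini-Hochberg adjusted p below 0.05 in limma, 1 of 39 members was lower, where 1.30% of all 11072 tested genes were, and 0 of 39 were higher, where 2.94% were. At an unadjusted p below 0.05 limma gave 4 of 39 members, the orosomucoids and *Apcs*, a smaller share than the 21.6% of all tested genes. At a fold change above 2 with an unadjusted p below 0.05, 3 members were lower (3.75% of all tested genes) and 0 were higher (4.78%). Groups without overlap were seen in 3 of 39 members and in 17.8% of all tested genes, so the share among the members was under the background.

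The orosomucoids, or alpha-1-acid glycoproteins, are secreted glycoproteins that bind basic and neutral drugs and lipids in plasma, and they are classical positive acute phase proteins. In the mouse the genes lie next to each other on chromosome 4 in the order *Orm1*, the pseudogene Gm11212, *Orm3* and *Orm2*. The promoters of *Orm2* and *Orm3* are shown because the groups did not overlap for these genes, and those of *Saa1* and *Saa2*, a second pair of neighbouring acute phase genes, because the groups overlapped. Each window runs from 250 bases before to 50 bases after the annotated start of the gene in RefSeq. Capitals mark each match, on either strand, to the C/EBP motif TTGCNNAA and to TGTTCT, a half-site of the glucocorticoid receptor.
*Orm2* promoter window, GRCm38.p6 chr4:63362199-63362498, plus strand: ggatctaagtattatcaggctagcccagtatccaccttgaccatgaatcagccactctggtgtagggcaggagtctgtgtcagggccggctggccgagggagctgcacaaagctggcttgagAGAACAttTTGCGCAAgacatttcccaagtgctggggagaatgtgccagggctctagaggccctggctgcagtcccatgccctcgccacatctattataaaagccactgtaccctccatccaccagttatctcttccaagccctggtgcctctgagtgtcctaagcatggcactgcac
*Orm3* promoter window, GRCm38.p6 chr4:63355908-63356207, plus strand: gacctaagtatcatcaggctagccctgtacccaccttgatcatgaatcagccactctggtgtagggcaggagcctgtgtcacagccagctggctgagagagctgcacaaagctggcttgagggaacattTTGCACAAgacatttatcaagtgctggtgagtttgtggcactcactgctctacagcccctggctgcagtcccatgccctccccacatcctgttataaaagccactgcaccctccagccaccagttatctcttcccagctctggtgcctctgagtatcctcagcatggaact
*Saa1* promoter window, GRCm38.p6 chr7:46742931-46743230, minus strand: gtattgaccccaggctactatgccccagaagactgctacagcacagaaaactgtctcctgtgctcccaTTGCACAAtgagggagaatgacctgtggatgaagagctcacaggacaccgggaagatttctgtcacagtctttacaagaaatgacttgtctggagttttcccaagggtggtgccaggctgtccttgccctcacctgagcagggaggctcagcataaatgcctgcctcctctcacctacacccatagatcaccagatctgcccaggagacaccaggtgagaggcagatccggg
*Saa2* promoter window, GRCm38.p6 chr7:46751583-46751882, plus strand: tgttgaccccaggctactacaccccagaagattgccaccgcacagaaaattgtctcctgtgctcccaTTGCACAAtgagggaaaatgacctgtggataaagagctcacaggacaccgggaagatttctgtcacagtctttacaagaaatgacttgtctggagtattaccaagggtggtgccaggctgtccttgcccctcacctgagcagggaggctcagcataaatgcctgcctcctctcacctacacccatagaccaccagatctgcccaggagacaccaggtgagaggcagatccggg

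Over the best alignment the windows of *Orm2* and *Orm3* were identical at 86.2% of the columns and those of *Saa1* and *Saa2* at 95.3%, whereas *Orm2* and *Saa1* shared 46.7%. All 4 windows hold 1 match to the C/EBP motif, which begins at base -120 of *Orm2*, -121 of *Orm3*, -182 of *Saa1* and -183 of *Saa2* relative to the start. In the *Orm2* window an AGAACA, the half-site read on the other strand, begins at base -128, just upstream of the C/EBP match, while *Orm3* has 0 matches to that half-site. Over the 38 windows of 34 member genes in the table, 21 (55.3%) hold the C/EBP motif, against 10.8% of all 32851 windows. The other motifs were in 4 member windows for the STAT motif TTCNNNGAA (10.5%, against 8.30% of all windows), in 6 for the kappa-B motif GGNNTTTCC (15.8%, against 5.82%), in 4 for the HNF1 motif GTTAATNAT (10.5%, against 0.80%) and in 16 for the half-site (42.1%, against 19.0%). A match describes the letters of a window and is not a bound site. Among the genes with a C/EBP match were *Orm2* and *Orm3* but also *Saa1*, *Saa2*, *Hpx*, *Lcn2*, *Alb* and *Ahsg*, whose groups overlapped.

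*Orm1* was measured at 7.80, 7.63, 7.49 and 8.28 on the hCNR1+/+ arrays and at 6.95, 6.78, 6.92 and 6.12 on the hCNR1-/- arrays. The groups did not overlap, but the gap between the lowest hCNR1+/+ array and the highest hCNR1-/- array was narrower than the range within either genotype. Its log2 fold change was -1.11 (standard error 0.27, 95% interval -1.70 to -0.51, limma, adjusted p = 0.0494), or 2.16-fold lower in hCNR1-/- hepatocytes. The smallest p that an exact permutation test of 4 against 4 arrays can give is 0.0286 (two-sided), and *Orm1*, *Orm2* and *Orm3* each reached it. Groups without overlap always give this p, and 17.8% of all tested genes had such groups, so it adds nothing to the separation itself.

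On the hCNR1+/+ arrays the levels of *Orm2* were 8.07, 8.11, 7.89 and 9.37, against 7.38, 7.20, 7.44 and 7.26 on the hCNR1-/- arrays. Replicate 4 was far above the other hCNR1+/+ arrays, and the hCNR1-/- arrays lay close together. The log2 fold change was -1.04 (standard error 0.32, limma, adjusted p = 0.101).

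For *Orm3* the hCNR1+/+ levels were 5.11, 5.05, 4.64 and 7.18, and the hCNR1-/- levels were 3.80, 3.88, 3.93 and 3.94. Here the spread was almost wholly within the hCNR1+/+ group, with an SD of 1.14 against 0.06 in hCNR1-/- hepatocytes. The log2 fold change was -1.61 (standard error 0.48, limma, adjusted p = 0.0938), the largest decrease among the tested members. The 3 genes are close copies of each other and each was read by 1 probe, whose sequence was not at hand, so RNA of one gene may have added to the signal of another.

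**Figure D1:**
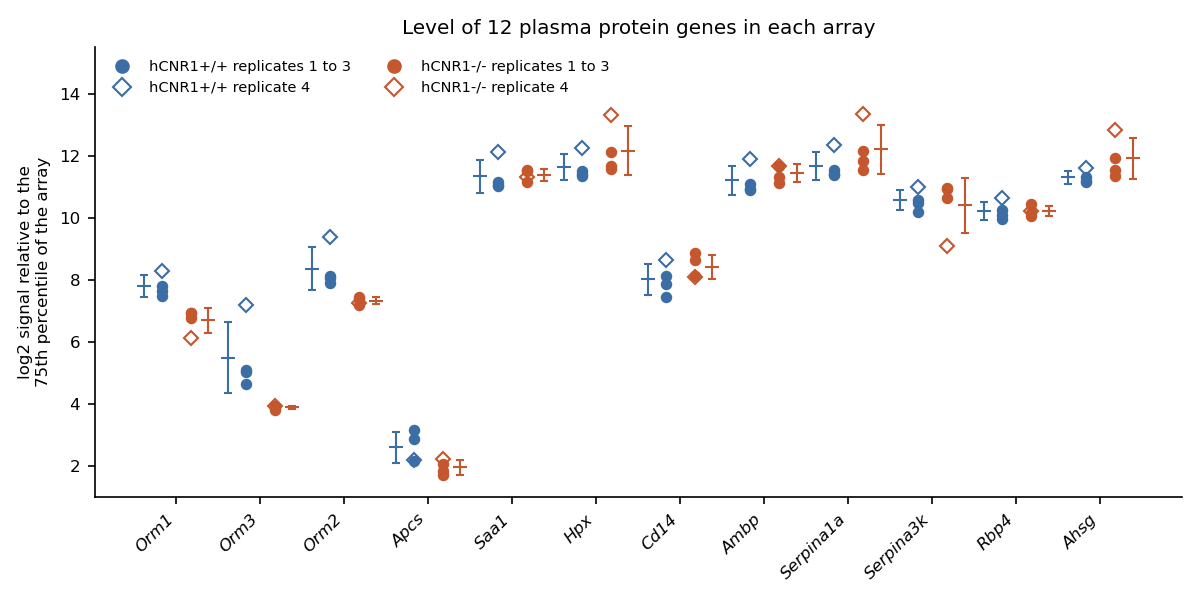
Log2 signal relative to the 75th percentile of the array (y axis) for the members with an unadjusted p below 0.05 or separate groups (*Orm1*, *Orm3*, *Orm2*, *Apcs*) and for the member with the highest signal in each other group of proteins. Points are arrays, with replicate 4 of each genotype as an open diamond, and bars are the mean ± SD (n = 4); the 3 orosomucoids are separated between hCNR1+/+ and hCNR1-/- arrays and the other 9 genes overlap.

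The decrease of the orosomucoids was also measured without any scaling between arrays. The spot intensity of *Orm1* was 29669, 27579, 19860 and 19210 units on the hCNR1+/+ arrays, against 15281, 8724, 11379 and 2035 units on the hCNR1-/- arrays, and the groups stayed apart. Without scaling, however, the median log2 fold change of all tested genes was -0.47. That of *Orm1* was -1.67 and did not pass the test (limma, adjusted p = 0.610). Within each array, *Orm1* was set against the mean log2 signal of the 36 other tested members. The hCNR1+/+ arrays gave differences of -0.45, -0.73, -1.01 and -0.98, and the hCNR1-/- arrays gave -1.48, -2.10, -1.74 and -2.56, a shift of -1.18, which subtracting 1 value per array cannot move. For *Orm2* the shift was -1.11 and for *Orm3* -1.67, again without overlap. Set against *Hp*, *Saa1*, *Saa2*, *Lcn2* and *Serpina3n* in turn, *Orm1* was lower in hCNR1-/- hepatocytes by -1.40, -1.16, -1.51, -1.26 and -1.30 on the log2 scale, each time with no overlap. These contrasts share the same *Orm1* values. All of these comparison genes had positive log2 fold changes, from 0.05 (*Saa1*) to 0.40 (*Saa2*). Apart from *Orm2*, no single member with a negative log2 fold change was used in this way. The lack of overlap is therefore shown for these comparison genes only. The spot intensity of *Hp* was 171177 units on hCNR1-/- replicate 4 and 232795 to 300500 on the others, against percentiles of 29.3 and of 62.0 to 139. The part of array brightness in these differences was not tested. Set against *Orm2*, the shift was -0.07 and the groups overlapped.

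**Figure D2:**
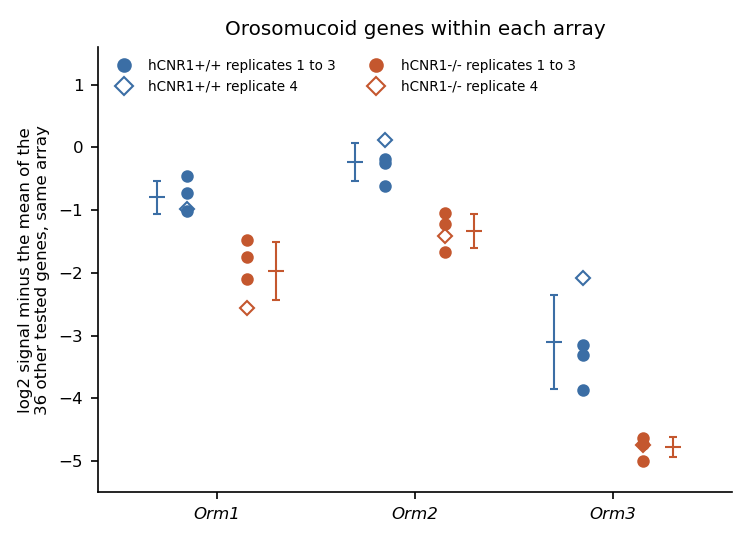
Log2 signal of each orosomucoid gene minus the mean log2 signal of the 36 other tested members of the same array (y axis). Points are arrays, with replicate 4 as an open diamond, and bars are the mean ± SD (n = 4); for all 3 genes every hCNR1-/- array lies below every hCNR1+/+ array.

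Without the 2 dimmest arrays, an alternative chosen after seeing the data, the log2 fold changes were smaller and their errors narrower. *Orm1* then had a difference of -0.76 on the log2 scale (standard error 0.15, limma, adjusted p = 0.0173), *Orm2* one of -0.68 (standard error 0.15, limma, adjusted p = 0.0223) and *Orm3* one of -1.06 (standard error 0.17, limma, adjusted p = 0.0110). In that fit 3 of 39 members were lower at the adjusted threshold, against 4.34% of all tested genes, and 1 was higher, *Itih2*, against 15.4%. With single arrays left out, the call of *Orm1* held only without hCNR1-/- replicate 4 (limma, adjusted p = 0.0297) and was lost without any of the other 7 arrays, where its log2 fold change ran from -1.21 to -0.95. Over all 24 alternatives the log2 fold change of *Orm1* ran from -1.67 to -0.76, of *Orm2* from -1.59 to -0.68 and of *Orm3* from -2.16 to -1.04, and none was positive. The adjusted p of *Orm1* ran from 0.00891 to 0.610 in limma over the same alternatives.

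**Figure D3:**
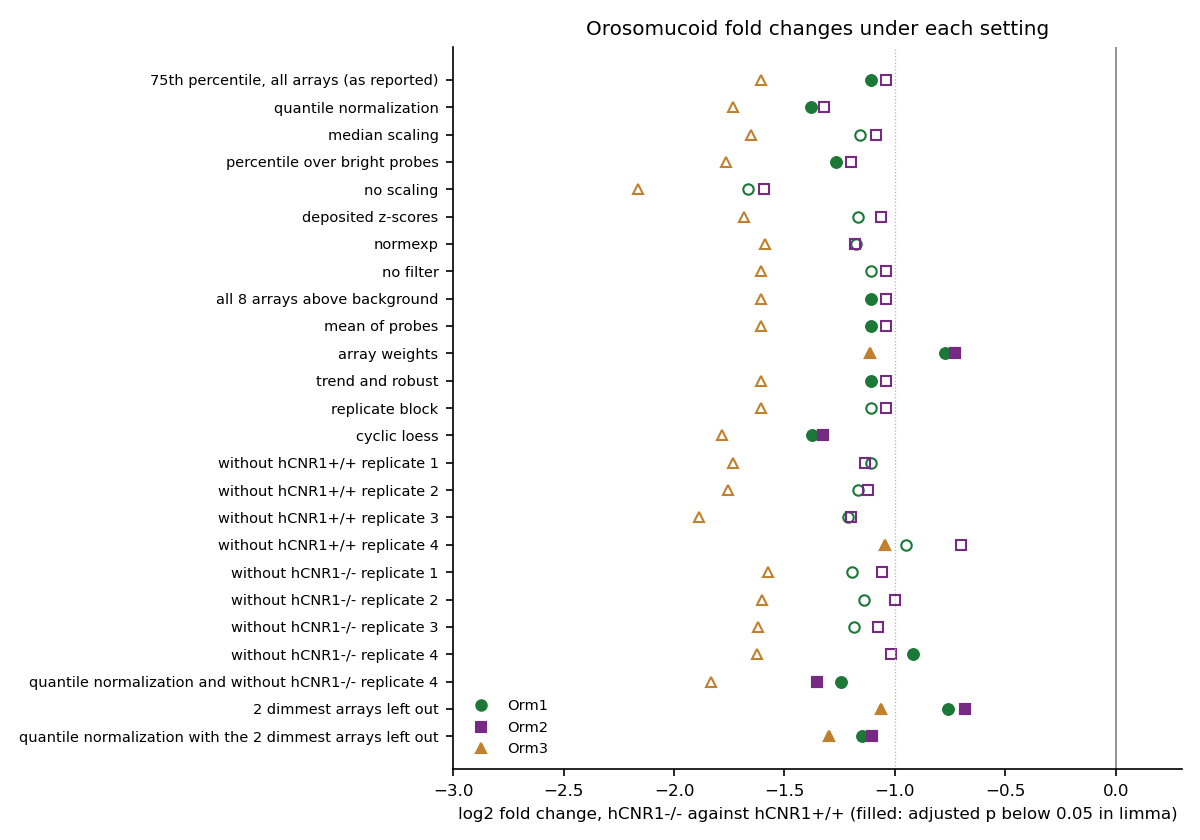
Log2 fold change of *Orm1*, *Orm2* and *Orm3* in hCNR1-/- against hCNR1+/+ hepatocytes (x axis) under the reported setting and each of the 24 alternatives (y axis), filled where the adjusted p in limma was below 0.05. All values are below 0; *Orm1* passed the threshold under the reported setting and 11 alternatives, *Orm2* under 5 and *Orm3* under 4.

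Markers of macrophages also had lower values in hCNR1-/- preparations. Of 18 Kupffer cell and macrophage markers 11 were measured, and all 11 had lower values, with a median log2 fold change of -0.83. At the adjusted threshold in limma 2 of them were lower, where 1.30% of all tested genes were. Groups without overlap were seen in 5 of these 11 markers, against 17.8% of all tested genes. Their mean level was 1.10 to 2.35 over the hCNR1+/+ arrays and 0.05 to 0.90 over the hCNR1-/- arrays, and *Cd163*, *Fcgr1*, *Mrc1* and *Timd4* were above background on no array. Of the 20 hepatocyte markers 14 had lower values, with a median log2 fold change of -0.34 and 1 call, *Hal*, and 4 of the 20 were without overlap. In such preparations fewer cells of a type and less RNA per cell cannot be told apart, and the part of either in the orosomucoid result was not tested. Of 15 lymphocyte markers 3 were measured, all 3 with higher values in hCNR1-/- preparations (median log2 fold change 0.61) and 2 of them without overlap. Of 13 neutrophil markers 2 were measured, both without overlap, *Elane* at a log2 fold change of 0.70 and *Csf3r* at -0.80, and 0 markers of either type passed the adjusted threshold in limma. Measured were also, of 12 endothelial markers 10 (median log2 fold change -0.18), of 12 stellate cell markers 1 and of 7 cholangiocyte markers 3.

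The serum amyloid A proteins are apolipoproteins of the acute phase, with *Saa1* and *Saa2* expressed mainly in liver, *Saa3* also in macrophages and *Saa4* constitutively. The 4 hCNR1+/+ arrays gave *Saa1* levels of 11.07, 11.14, 11.01 and 12.12, compared with 11.15, 11.55, 11.50 and 11.33 for the 4 hCNR1-/- arrays. Apart from hCNR1+/+ replicate 4, the arrays of both genotypes lay between 11.01 and 11.55, and the log2 fold change was 0.05 (95% interval -0.58 to 0.67, limma, adjusted p = 0.942). *Saa2* had a log2 fold change of 0.40, *Saa3* of 0.03 and *Saa4* of -0.87 (limma, adjusted p = 0.486, 0.967 and 0.388). The value of *Saa4* rested on the 2 dimmest arrays, since it was -0.33 without hCNR1-/- replicate 4, -0.55 without hCNR1+/+ replicate 4 and -0.01 without both. The *Saa1* and *Saa2* probes may take up each other's RNA.

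The scavengers of haemoglobin, haem and metals had log2 fold changes from 0.15 to 0.53, and none passed a test. Their sign depended on the setting: *Hp*, *Lcn2* and *Hpx* were at -0.22, -0.25 and -0.03 with quantile normalization, and *Hp* and *Lcn2* at -0.01 and -0.03 without hCNR1-/- replicate 4. Hemopexin (*Hpx*) binds free haem, haptoglobin (*Hp*) free haemoglobin, lipocalin 2 (*Lcn2*) bacterial siderophores, ceruloplasmin (*Cp*) copper and transferrin (*Trf*) iron. *Hpx* was measured at 11.39, 11.36, 11.52 and 12.25 on the hCNR1+/+ arrays and at 11.56, 12.12, 11.68 and 13.30 on the hCNR1-/- arrays, a log2 fold change of 0.53 (95% interval -0.35 to 1.42, limma, adjusted p = 0.465). The highest value in each group was the dimmest array. Without hCNR1-/- replicate 4 the log2 fold change of *Hpx* was 0.16. In unscaled intensity *Hpx* was 301509 to 366111 on the hCNR1+/+ arrays and 294622 to 374260 on the hCNR1-/- arrays, so its spot differed little between arrays whose percentiles differed several-fold. *Hp* had a log2 fold change of 0.29 (95% interval -0.55 to 1.13), *Cp* of 0.31, *Lcn2* of 0.15 and *Trf* of 0.42, and a second *Trf* probe gave -0.15.

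Pentraxins are pattern-recognition proteins of plasma, and in the mouse serum amyloid P (*Apcs*) is the main acute phase member while C-reactive protein (*Crp*) responds little. On the hCNR1+/+ arrays the levels of *Apcs* were 3.16, 2.89, 2.16 and 2.20, against 1.71, 1.83, 2.08 and 2.23 on the hCNR1-/- arrays. The hCNR1+/+ values were split, with 2 arrays above the hCNR1-/- arrays and 2 in their range, and the groups overlapped. The log2 fold change was -0.64 (standard error 0.28, limma, adjusted p = 0.217; exact two-sided permutation test, p = 0.0857). *Apcs* was also the member that did not share the pattern of hCNR1+/+ replicate 4, in which the other 38 tested members were above the mean of replicates 1 to 3. *Crp* had a log2 fold change of -0.75 (limma, adjusted p = 0.306), of -0.40 without hCNR1-/- replicate 4, of -0.50 without hCNR1+/+ replicate 4 and of -0.14 without both.

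The lipopolysaccharide-binding protein (*Lbp*) passes bacterial lipopolysaccharide to CD14, which presents it to the Toll-like receptor 4 complex. For *Cd14* the hCNR1+/+ levels were 7.43, 7.86, 8.12 and 8.65, and the hCNR1-/- levels were 8.11, 8.65, 8.85 and 8.08, with overlap between the groups. Its log2 fold change was 0.41 (95% interval -0.28 to 1.09, limma, adjusted p = 0.472), and -0.15 without scaling between arrays. That of *Lbp* was -0.31 (95% interval -0.81 to 0.19).

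The inter-alpha-trypsin inhibitor family consists of heavy chains (*Itih1* to *Itih4*) and the light chain bikunin, which is cut with alpha-1-microglobulin from the product of *Ambp* and is joined to heavy chains to stabilise hyaluronan. The 4 hCNR1+/+ arrays gave *Ambp* levels of 10.91, 10.93, 11.09 and 11.89, compared with 11.11, 11.68, 11.31 and 11.66 for the 4 hCNR1-/- arrays, a log2 fold change of 0.24 (limma, adjusted p = 0.650). *Ambp* is the nearest of the listed genes to the orosomucoid cluster, and *Col27a1*, between them on chromosome 4, had a log2 fold change of 0.26 (limma, adjusted p = 0.701).

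*Itih2* had the largest positive log2 fold change of the members, 0.91 (standard error 0.45, limma, adjusted p = 0.270). This gene was measured at 3.94, 3.94, 4.40 and 6.01 on the hCNR1+/+ arrays and at 5.36, 5.37, 5.23 and 5.97 on the hCNR1-/- arrays. A single array, hCNR1+/+ replicate 4, overlapped the hCNR1-/- group and lay above all of it. Without that array the log2 fold change was 1.39 (standard error 0.26, limma, adjusted p = 0.0382). Without both dimmest arrays it was 1.23 (standard error 0.18, limma, adjusted p = 0.00871). *Itih1*, *Itih3* and *Itih4* had log2 fold changes of 0.07, -0.12 and 0.18, and a second *Itih4* probe gave -0.09. *Itih3* was at 0.38 without both dimmest arrays.

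The *Serpina1* genes encode alpha-1-antitrypsin, the main plasma inhibitor of neutrophil elastase, and the *Serpina3* genes are a mouse expansion of alpha-1-antichymotrypsin. On the hCNR1+/+ arrays the levels of *Serpina1a* were 11.41, 11.38, 11.54 and 12.33, against 11.55, 12.14, 11.81 and 13.33 on the hCNR1-/- arrays. As for *Hpx*, the dimmest array was the highest of each group, and the log2 fold change was 0.55 (limma, adjusted p = 0.459). It was 0.17 without hCNR1-/- replicate 4. *Serpina1c*, *Serpina1d* and *Serpina1e* had log2 fold changes of 0.56, 0.28 and 0.61 and none passed a test. For *Serpina3k* the hCNR1+/+ levels were 10.20, 10.48, 10.58 and 10.99, and the hCNR1-/- levels were 10.63, 10.92, 10.97 and 9.09. In contrast to *Serpina1a*, hCNR1-/- replicate 4 was here the lowest of all arrays, and without it the log2 fold change was 0.28 instead of -0.16, and -0.02 without it after quantile normalization. *Serpina3c*, *Serpina3m* and *Serpina3n*, with log2 fold changes of -0.46, -0.36 and 0.19, did not pass a test, and members of either family may share hybridisation. Without hCNR1-/- replicate 4 *Serpina3c* and *Serpina3m* were at -0.03 and 0.04.

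Among the carriers of hormones and vitamins, which include several negative acute phase proteins, no gene passed a test. *Rbp4*, which carries retinol, was measured at 9.96, 10.09, 10.25 and 10.63 on the hCNR1+/+ arrays and at 10.16, 10.46, 10.04 and 10.21 on the hCNR1-/- arrays. The groups covered the same range, with a log2 fold change of -0.01 (95% interval -0.50 to 0.47, limma, adjusted p = 0.978). Transthyretin (*Ttr*), which carries thyroxine and the retinol-binding protein, had a log2 fold change of 0.33, and the vitamin D-binding protein (*Gc*) one of -0.07. Corticosteroid-binding globulin (*Serpina6*) had the widest spread of the tested members within hCNR1+/+, from 2.86 to 6.26. Over the hCNR1-/- arrays it ran from 3.33 to 4.93, and replicate 1 was the lowest in both genotypes. Its log2 fold change was -0.27 (95% interval -1.77 to 1.23).

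Albumin (*Alb*), the main protein of plasma and a negative acute phase protein, had mean levels of 11.10 (SD 0.25) over the hCNR1+/+ arrays and 10.86 (SD 0.13) over the hCNR1-/- arrays, n = 4 each, so the log2 fold change was -0.23 (95% interval -0.68 to 0.22, limma, adjusted p = 0.538). *Ahsg*, the mineral-binding fetuin-A, was measured at 11.17, 11.15, 11.30 and 11.60 on the hCNR1+/+ arrays and at 11.35, 11.92, 11.53 and 12.84 on the hCNR1-/- arrays. The groups overlapped, and the log2 fold change was 0.61 (95% interval -0.12 to 1.33, limma, adjusted p = 0.311). Fetuin-B (*Fetub*), the histidine-rich glycoprotein (*Hrg*) and afamin (*Afm*), a carrier of vitamin E, had log2 fold changes of 0.23, 0.02 and -0.19. Zinc-alpha-2-glycoprotein (*Azgp1*) had one of -0.45, which was -0.00 without hCNR1-/- replicate 4.

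**Figure D4:**
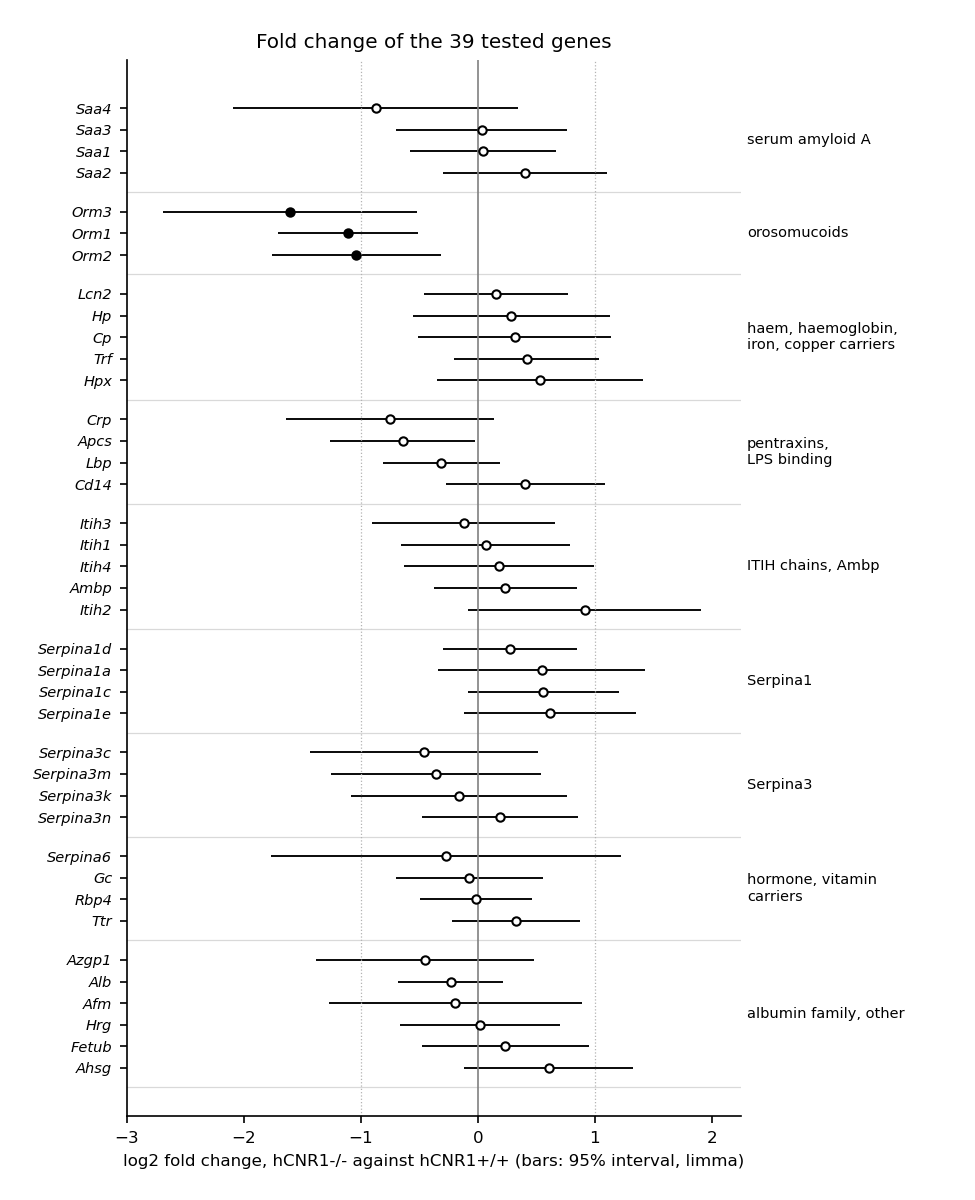
Log2 fold change in hCNR1-/- against hCNR1+/+ hepatocytes with its 95% interval from limma (x axis) for the 39 tested genes, grouped by the kind of protein (y axis). Filled points mark the genes whose groups did not overlap, *Orm1*, *Orm2* and *Orm3*, with log2 fold changes from -1.61 to -1.04; the other 36 lie between -0.87 and 0.91.

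The median log2 fold change of the 39 tested members was 0.05, against 0.08 over all 11072 tested genes, with 22 positive and 17 negative values. Without the orosomucoids the other 36 genes had a median of 0.11, a range from -0.87 to 0.91 and 0 calls in either direction at either threshold, and 1 of them, *Apcs*, had an unadjusted p below 0.05 in limma. Split by their response in inflammation, the 18 positive acute phase genes had a median of 0.04, with 10 positive and 8 negative values, and the 8 negative acute phase genes had a median of 0.11, with 4 of each sign and 0 calls. The median of the members was -0.51 without scaling between arrays, where that of all tested genes was -0.47, so the sign of single members with small differences is relative to the scaling.

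hCNR1+/+ replicate 4 and hCNR1-/- replicate 4 differed from their groups across the plasma protein genes. In hCNR1+/+ replicate 4, 38 of 39 members were above the mean of replicates 1 to 3, by a median of 0.85 on the log2 scale. In hCNR1-/- replicate 4 the members with a level above 10 were mostly higher, 12 of 16, with a median of 0.70, and those with a level of 5 to 10 were mostly lower, 10 of 16, with a median of -0.38. These shifts include the subtraction of a low percentile: in unscaled log2 intensity the median over the 39 members was -0.19 for hCNR1+/+ replicate 4, and that over the 16 members with a level above 10 was -1.03 for hCNR1-/- replicate 4. The SD of a member within hCNR1+/+ had a median of 0.47 with and 0.16 without replicate 4, and over all tested genes 0.29 and 0.20. Within hCNR1-/- these medians were 0.39 and 0.28 for the members and 0.45 and 0.22 for all tested genes.

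**Figure D5:**
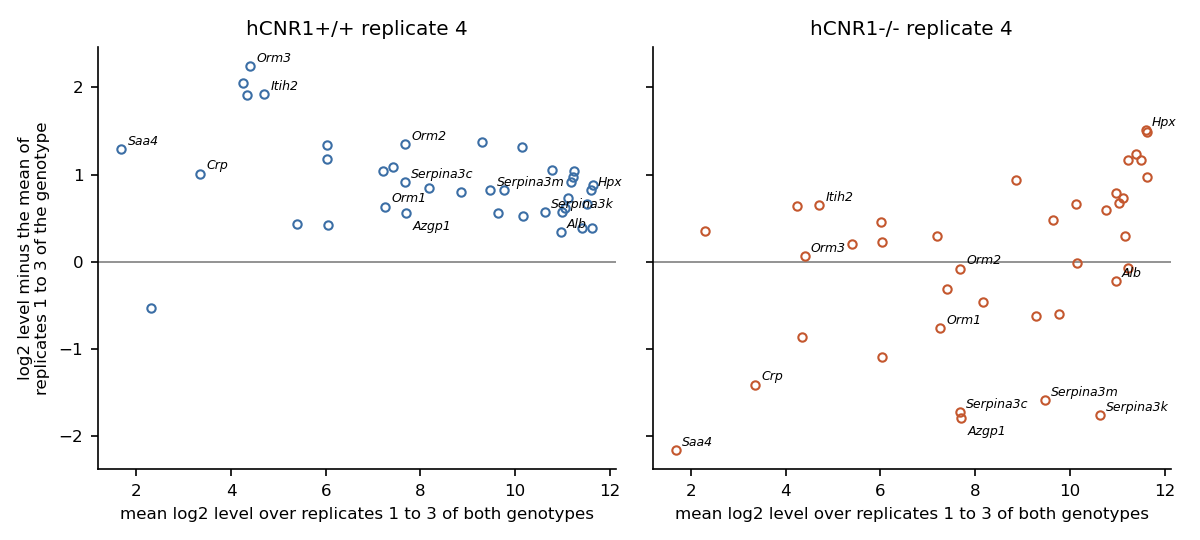
Log2 level of each of the 39 tested genes in replicate 4 minus the mean of replicates 1 to 3 of the same genotype (y axis) against its mean level over replicates 1 to 3 of both genotypes (x axis), for hCNR1+/+ (left) and hCNR1-/- (right). In hCNR1+/+ 38 of 39 genes lie above 0. In hCNR1-/- 12 of the 16 genes with a level above 10 lie above 0, and *Serpina3k*, *Serpina3m*, *Serpina3c*, *Azgp1*, *Crp* and *Saa4* lie well below it.

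The signalling genes of the acute phase, including the interleukin-6 receptor chains, STAT3 and its inhibitor SOCS3, were measured for 26 of 27 listed genes, and 0 passed the adjusted threshold in limma in either direction, with 4 of 26 at an unadjusted p below 0.05, where 21.6% of all tested genes were, and a median log2 fold change of -0.01. *Stat3*, the transcription factor activated by interleukin-6, had a level of 5.57 to 6.23 in hCNR1+/+ and of 6.28 to 7.31 in hCNR1-/- arrays, without overlap (log2 fold change 0.87, standard error 0.26, limma, adjusted p = 0.0948). *Socs3*, a target and inhibitor of STAT3, had mean levels of 4.09 (SD 1.17) and 2.74 (SD 0.30), n = 4 each, also without overlap (log2 fold change -1.35, standard error 0.51, limma, adjusted p = 0.165). *Il1r1*, the interleukin-1 receptor, differed by -1.98 on the log2 scale (standard error 0.62, limma, adjusted p = 0.106), with overlap between the groups. *Stat3* and *Socs3* thus had log2 fold changes of opposite sign, and neither passed the adjusted test.

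Of 20 further acute phase genes outside the list 19 were tested, with 0 calls at the adjusted threshold in limma, 5 of 19 at an unadjusted p below 0.05 against 21.6% of all tested genes, a median log2 fold change of -0.29 and 15 of 19 values negative. The smallest p-values belonged to *Steap4*, a metalloreductase, *Hamp2*, a copy of hepcidin, and *Vnn1*, a pantetheinase, with log2 fold changes of -2.45, -2.10 and -0.79 (limma, adjusted p = 0.134, 0.179 and 0.189). In *Steap4* and *Hamp2* hCNR1+/+ replicate 4 was the highest array, at 3.25 and 4.80, against -0.82 to 0.77 and 0.63 to 1.90 in replicates 1 to 3.

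Complement and coagulation factors are the other large group of liver-made plasma proteins. Of 42 listed genes 41 were tested, with 0 lower at the adjusted threshold in limma and a median log2 fold change of -0.17. An unadjusted p below 0.05 was seen in 8 of 41, against 21.6% of all tested genes. *C4bp*, the C4b-binding protein, was 6.02 to 7.25 in hCNR1+/+ and 5.19 to 5.66 in hCNR1-/- arrays (log2 fold change -1.14, standard error 0.28, limma, adjusted p = 0.0515), and *C9*, of the membrane attack complex, had a log2 fold change of 1.12 (limma, adjusted p = 0.108). Among 14 genes of apolipoproteins and their assembly, 1 was higher at the adjusted threshold in limma, where 2.94% of all tested genes were. It was *Apob*, the structural protein of very low density lipoprotein, with a log2 fold change of 1.63 (standard error 0.38, limma, adjusted p = 0.0477). Its call under other settings is not given here. The median of the list was 0.41, against 0.08 over all tested genes. An unadjusted p below 0.05 was seen in 1 of 14, against 21.6% of all tested genes. *Apoc1* and *Apoc3* had log2 fold changes of 0.59 and 0.47 and did not pass the test.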

How the data were processed

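Hepatocyte RNA of 4 hCNR1+/+ and 4 hCNR1-/- samples was hybridised to 1-colour Agilent arrays, and groups were taken from the labels. The authors deposited, per spot, the background-corrected intensity written by Feature Extraction 12.0.3.1, not scaled between arrays. A second deposited column, a score for each spot, differed by at most 0.005 from that array's log intensities turned into z-scores.

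From the log2 intensities of an array its 75th percentile over 59305 non-control spots was subtracted. Outlier-flagged spots were dropped and the other spots of a probe averaged. Accessions were matched without versions to RefSeq (assembly GRCm38.p6), which named 28331 of 55681 probes and 21368 genes. A gene was tested when a probe was well above background (at least 50% of its spots flagged so) on at least 4 of the 8 arrays, with its brightest probe. The test was two-sided, with lmFit and eBayes of limma 3.58.1 in R 4.3.3 and Benjamini-Hochberg adjustment over 11072 genes. On simulated arrays with the means and SDs of the tested genes it called 13% of log2 changes of 1. It called 71% of log2 changes of 2, with 2 false calls. A member without a call is therefore not shown to be unchanged. For single members the 70 assignments of arrays to genotypes gave an exact permutation test. The members and all gene lists were chosen with earlier results of these data known. Levels in every array were given for members with an unadjusted p below 0.05 or separate groups and for the brightest of each kind of protein, and up to 3 genes with the smallest p for each other list; *Itih2*, *Col27a1*, *Hal* and further values were named after they were seen.

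Promoter windows, 250 bases before to 50 after a start, came from RefSeq; the window of *Orm1* and 8 other members was not used here. The array design names an older build, mm9, so windows were joined to genes by symbol only. Protein identities of the copies were not computed here, and 1 result on complement genes is not reported here. The alternatives were other scalings, the z-scores, filters, probe choices, variance models, a replicate block and arrays left out. The 8 arrays limit the precision.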

Additional observations from a re-analysis of the deposited data

Results flagged for a closer look

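Each tested member was examined in each genotype for an array far from the other 3, by the gap to its nearest neighbour over the range of the group against Dixon's 95% critical value, which chance alone passes in about 1 in 20 groups. Of 78 groups 8 passed it. In 5 of them the array apart was hCNR1+/+ replicate 4, which stood above the other hCNR1+/+ arrays. Its log2 level was 12.12 for *Saa1* (others 11.01 to 11.14), 2.99 for *Saa4* (others 1.64 to 1.72), 9.37 for *Orm2* (others 7.89 to 8.11), 10.48 for *Itih3* (others 9.02 to 9.23) and 12.33 for *Serpina1a* (others 11.38 to 11.54). In 2 groups it was hCNR1-/- replicate 4, which stood below the other hCNR1-/- arrays, at 1.87 for *Crp* (others 3.16 to 3.39) and 5.98 for *Azgp1* (others 7.61 to 7.89). In 1 group it was hCNR1-/- replicate 1, at 3.33 for *Serpina6* (others 4.75 to 4.93). Both replicates 4 have the lowest 75th percentile of their genotype, and it enters these levels. In unscaled log2 intensity, hCNR1+/+ replicate 4 minus the mean of replicates 1 to 3 was 0.01 for *Saa1*, 0.26 for *Saa4*, 0.32 for *Orm2*, 0.34 for *Itih3* and -0.15 for *Serpina1a*, and the same difference for hCNR1-/- replicate 4 was -3.14 for *Crp* and -3.53 for *Azgp1*.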

How the results depend on the processing

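Over 24 alternatives, 936 fold changes of single members were recomputed. *Orm1*, the only member that passed the adjusted test in the reported fit, kept its sign under every alternative. Of the 39 members 10 kept their sign under every alternative and 29 had the other sign under at least 1. The alternatives chosen after seeing the data were cyclic loess, the 2 that leave out the 2 dimmest arrays, quantile normalization without hCNR1-/- replicate 4, and the half-site motif. At the adjusted threshold in limma, 1 member was lower and 0 higher in the reported fit. The count of lower members was 0 with median scaling, no scaling, the z-scores, normexp and no filter, 2 with cyclic loess and with quantile normalization without hCNR1-/- replicate 4, and 3 with array weights and with the 2 dimmest arrays left out under either scaling. The count of higher members was 1, *Itih2*, with array weights and with the 2 dimmest arrays left out under either scaling. With the rule of a fold above 2 and unadjusted p below 0.05, 3 lower became 1 with array weights and with the 2 dimmest arrays left out, and 0 higher became 1 with these and with quantile normalization of the 6 remaining arrays. Leaving out each array in turn, the adjusted threshold gave 0 to 1 lower and 0 to 1 higher members and the fold rule 1 to 3 lower and 0 to 1 higher, with the fewest lower there without hCNR1+/+ replicate 4, where *Orm3* and not *Orm1* was called. The median log2 fold change of the members, 0.05, was -0.51 without scaling, where the median of all genes moved too. Otherwise the cause was not tested.

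The labels name no pairs, but same-numbered arrays shared a slide column, so the replicate block is also a block by column. Over all tested genes, deviations from the group means of same-numbered arrays correlated at 0.21, -0.16, -0.05 and 0.02. These correlations describe the genes together and do not show that single members are free of a shared shift. With the replicate block 0 members were lower at the adjusted threshold in limma, and *Orm1* had an adjusted p of 0.137 in limma. Low signal over background bears on *A1bg* and *Serpina7*, which have no value. Some tested members were also dim on hCNR1-/- replicate 4, although flagged well above background. Their spot intensities there were 21.1 units for *Saa4*, 107 for *Crp* and 137 for *Apcs*, against a percentile of 29.3.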
